A study of Mus musculus with 18 samples.

Results

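The G1 cyclins, the kinases they activate and the inhibitors of those kinases were followed through the differentiation of mouse neural stem cells into astrocytes, with and without tumor necrosis factor (TNF). The set holds 10 genes of the 54838 in the count table, chosen by name: the D cyclins *Ccnd1*, *Ccnd2* and *Ccnd3*, the kinases *Cdk4* and *Cdk6*, and the inhibitors *Cdkn1a*, *Cdkn1b*, *Cdkn2a*, *Cdkn2b* and *Cdkn2c*. All cells came from the ventricular zone of wild-type C57BL/6J embryos at embryonic day 14, with cultures started from single brains. Proliferating neurospheres (NSPs) were grown with EGF at 20 ng/ml, and the other 5 conditions were attached cells in differentiation medium with 10% FBS: 24 h, 24 h with TNF at 50 ng/ml, 72 h, 72 h with TNF at 50 ng/ml, and 1 week without TNF. Each of the 6 conditions had 3 libraries of total RNA depleted of ribosomal RNA. The labels do not say which libraries shared a brain or a culture, so p-values measure the spread between these libraries, which may be partly technical.

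A cell passes from G1 into S phase when a D cyclin joins CDK4 or CDK6 and the complex phosphorylates the retinoblastoma protein, which then releases the E2F factors that switch on S-phase genes. Inhibitors of the INK4 family (*Cdkn2a*, *Cdkn2b*, *Cdkn2c*) bind CDK4 and CDK6 and keep the D cyclins off, while those of the CIP/KIP family (*Cdkn1a*, which encodes p21, and *Cdkn1b*, which encodes p27) bind whole cyclin and kinase complexes. In neural progenitors the balance of both sides sets whether a cell divides again or leaves the cycle.

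Levels are given as CPM, that is read counts per gene scaled to a common library size with TMM factors. All 10 genes passed the filter on low counts, among 20067 genes that did, and each was covered by 14 to 16097 counts per library. Total counts per library were 12509693 to 22549627. A gene is said to rise or fall where its adjusted p from edgeR's quasi-likelihood test was under 0.05 over all genes tested. Replicate 1 of the NSPs, of 24 h with TNF and of 72 h with TNF each stood apart from the other 2 libraries of its condition, with root mean square log2 differences of 0.608 to 0.685 against 0.373 to 0.411 between those 2. Markers of other cells were checked beside the labels, which name the differentiated cells astrocytes. The 7 astrocyte markers were all detected. Their summed level was 3888 to 4152 CPM in NSPs, 5020 to 5221 CPM at 24 h and 5705 to 7783 CPM at 72 h. It was 3233 to 3325 CPM at 1 week, under every NSP library. The sum thus does not separate NSPs from all cells labelled astrocytes. *Gfap*, the classical astrocyte filament, was at 55.9, 52.7 and 81.6 CPM at 1 week against 1855, 3172 and 2270 CPM at 72 h. Of the other lists, 3 of 5 microglial markers (*Cx3cr1*, *Aif1*, *Tmem119*), 3 of 4 endothelial markers (*Pecam1*, *Cdh5*, *Cldn5*) and 4 of 5 fibroblast and mural markers (*Col1a1*, *Dcn*, *Lum*, *Pdgfrb*, but not *Acta2*) were under 1 CPM in every library. The remaining microglial markers *P2ry12* and *Csf1r* reached 2.535 and 1.04 CPM. The remaining endothelial marker *Kdr* was at 3.34 to 6.32 CPM in the differentiated libraries without TNF. *Acta2*, a smooth muscle actin, was at 10.3, 3.62 and 3.53 CPM in NSPs and at 195 to 494 CPM in the 9 differentiated libraries without TNF, 76.0-fold, 40.7-fold and 64.15-fold higher than in NSPs at 24 h, 72 h and 1 week (adjusted p = 3.53e-07, 8.84e-07 and 2.39e-07), and its part in the changes of the set against NSPs was not tested. The 5 neuronal markers summed to 1435 to 2092 CPM, of which *Map2* made up 1409 to 2075 CPM. *Tubb3* was at 12.1 to 23.7 CPM in NSPs, 30.6 to 41.2 CPM at 24 h and 12.98 to 55.5 CPM at 24 h with TNF, and at 15.1 CPM or less later, while *Dcx* reached 10.1 CPM, *Rbfox3* 3.02 CPM and *Snap25* 1.65 CPM at most. Of the 5 oligodendrocyte lineage markers *Mog* alone was under 1 CPM in every library, and the list summed to 14.2 to 38.9 CPM in NSPs and 6.19 to 25.9 CPM in the other conditions.

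Promoter sequences were available for 8 of the 10 genes in RefSeq (GRCm38.p6), as 12 start sites. The 250 bases upstream of the starts of *Cdkn1a* and *Cdkn2b* are shown because these were the genes of the set that rose with TNF at both times, and those of *Cdk4* as an example of the genes that fell in every comparison with NSPs, which *Ccnd1* and *Cdkn2c* also did. *Cdkn1a* has an upstream start (window chr17:29090729-29090978, forward strand) and a downstream start (window chr17:29093519-29093768, forward strand), which the counts per gene do not separate. The windows of *Cdkn2b* and *Cdk4* are chr4:89311033-89311282 on the reverse strand and chr10:127063285-127063534 on the forward strand. Capitals mark the matches to 6 motifs, searched on both strands and chosen after the sequences had been seen. For paired p53 half-sites, defined below, the capitals include the spacer between them.
Cdkn1a, upstream start: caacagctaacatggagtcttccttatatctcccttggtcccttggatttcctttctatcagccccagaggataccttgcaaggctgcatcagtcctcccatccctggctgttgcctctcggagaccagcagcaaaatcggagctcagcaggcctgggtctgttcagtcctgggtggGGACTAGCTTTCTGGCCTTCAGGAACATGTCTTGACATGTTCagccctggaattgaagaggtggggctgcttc
Cdkn1a, downstream start: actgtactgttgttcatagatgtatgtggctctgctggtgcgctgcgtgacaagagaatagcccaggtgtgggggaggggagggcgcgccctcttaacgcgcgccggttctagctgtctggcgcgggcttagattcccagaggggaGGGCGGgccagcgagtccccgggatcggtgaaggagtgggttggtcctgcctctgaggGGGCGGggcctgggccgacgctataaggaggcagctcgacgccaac
Cdkn2b: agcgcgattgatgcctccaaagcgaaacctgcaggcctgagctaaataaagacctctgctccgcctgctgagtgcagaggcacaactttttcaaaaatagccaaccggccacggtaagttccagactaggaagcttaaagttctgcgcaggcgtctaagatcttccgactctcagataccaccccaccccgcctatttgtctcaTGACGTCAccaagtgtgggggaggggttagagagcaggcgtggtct
Cdk4: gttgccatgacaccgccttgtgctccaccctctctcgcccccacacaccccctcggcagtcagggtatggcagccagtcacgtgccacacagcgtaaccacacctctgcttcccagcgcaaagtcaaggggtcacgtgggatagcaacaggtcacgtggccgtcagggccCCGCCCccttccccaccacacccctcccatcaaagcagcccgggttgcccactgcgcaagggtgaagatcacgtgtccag

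The window of the upstream *Cdkn1a* start held 2 overlapping matches to paired p53 half-sites, the nearer ending 31 bases before the start, and 1.14% of all 32851 promoter windows of this length held at least 1 such match. A half-site was the published p53 consensus with its central CWWG core kept and at most 1 other letter off, and a pair had a spacer of at most 13 bases. The downstream *Cdkn1a* window held 2 GC boxes (GGGCGG), the nearer 40 bases before the start, and the *Cdk4* window held 1, at 74 bases. GC boxes were in 32.7% of all windows. The *Cdkn2b* window held the CRE motif TGACGTCA 38 bases before the start, a motif in 1.55% of all windows. No 2 different motifs overlapped. None of these 4 windows held TATAAA (12.4% of windows), an E2F motif (TTTGGCGC, TTTCCCGC, TTTGCCGC or TTTCGCGC, 1.86%) or the NF-kB consensus (3.9%). A match is a description of the letters, and no binding was measured here.

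*Ccnd1* encodes cyclin D1, a growth factor-responsive partner of CDK4 and CDK6, and lies at chr7:144929931-144939925 on GRCm38. In NSPs its level was 671, 320.5 and 332 CPM in replicates 1 to 3. At 24 h it was 23.9, 29.6 and 23.9 CPM, and at 72 h it was 10.3, 9.33 and 13.4 CPM. Every differentiated library was therefore far under every NSP library, and the 72 h libraries formed the lowest group. *Ccnd1* fell by 4.09 on the log2 scale at 24 h (SE 0.43, adjusted p = 3.91e-07, edgeR), a level 17.1-fold lower, and fell by 5.32 at 72 h (SE 0.46, adjusted p = 1.56e-08), 40.0-fold lower. At 1 week the level was 40.5, 31.7 and 46.1 CPM, higher than in any 72 h library. The rise from 72 h to 1 week was 1.84 on the log2 scale (SE 0.41, adjusted p = 0.00896), and the week-old cells were still 11.2-fold under NSPs (adjusted p = 9.15e-07). The call from 72 h to 1 week was lost without 72 h replicate 2 (1.73, adjusted p = 0.0603, of a range from 0.0167 to 0.0603 over the 6 fits without 1 library). The smaller fall from 24 h to 72 h (2.34-fold, adjusted p = 0.0333) was lost in each of the 6 fits without 1 library, with adjusted p from 0.0525 to 0.118.

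*Ccnd2* encodes cyclin D2, which is used by cycling progenitors of the cortex, and lies at chr6:127125162-127152193. Its levels took another course: 693, 274 and 252 CPM in NSPs, and 677, 676 and 904 CPM at 24 h. The level then dropped, to 109, 76.1 and 97.6 CPM at 72 h, and it stood at 265, 370 and 228 CPM at 1 week. *Ccnd2* at 24 h thus overlapped with NSPs only through NSP replicate 1, and the difference was not called (log2 fold change 0.89, SE 0.49, adjusted p = 0.134). Without NSP replicate 1 it was 1.51 and was called (adjusted p = 0.0238). At 72 h *Ccnd2* was 4.32-fold lower than in NSPs (log2 -2.11, SE 0.51, adjusted p = 0.00166). Without NSP replicate 1 that difference was -1.49 on the log2 scale (adjusted p = 0.0178). At 1 week the difference from NSPs was not called (-0.50, adjusted p = 0.391), and without NSP replicate 1 it changed sign (0.125, adjusted p = 0.846). From 24 h to 72 h *Ccnd2* fell by 3.00 on the log2 scale (SE 0.52, adjusted p = 0.000347), a 7.99-fold drop with no overlap between the groups. All 1 week libraries were above all 72 h libraries, by 1.61 on the log2 scale (SE 0.50), which missed the threshold (adjusted p = 0.0618). It passed with at least 5 counts in total as the filter (0.0446), with only the conditions compared in the fit (0.00127) and without the 3 libraries that stood apart (4.39e-06), and over all settings the adjusted p reached 0.23.

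*Ccnd3*, the gene of cyclin D3 at chr17:47505051-47599691, was the only D cyclin called higher than in NSPs. It was at 28.2, 27.2 and 26.0 CPM in NSPs and 25.6, 28.7 and 31.2 CPM at 24 h, which overlap. It was at 44.4, 46.5 and 42.5 CPM at 72 h and at 51.1, 46.6 and 46.8 CPM at 1 week. The rise over NSPs was 0.71 on the log2 scale at 72 h (SE 0.12, adjusted p = 5.24e-05) and 0.83 at 1 week (SE 0.12, adjusted p = 8.63e-06), and the gap between 72 h and 1 week was 0.12 (adjusted p = 0.664).

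**Figure D1:**
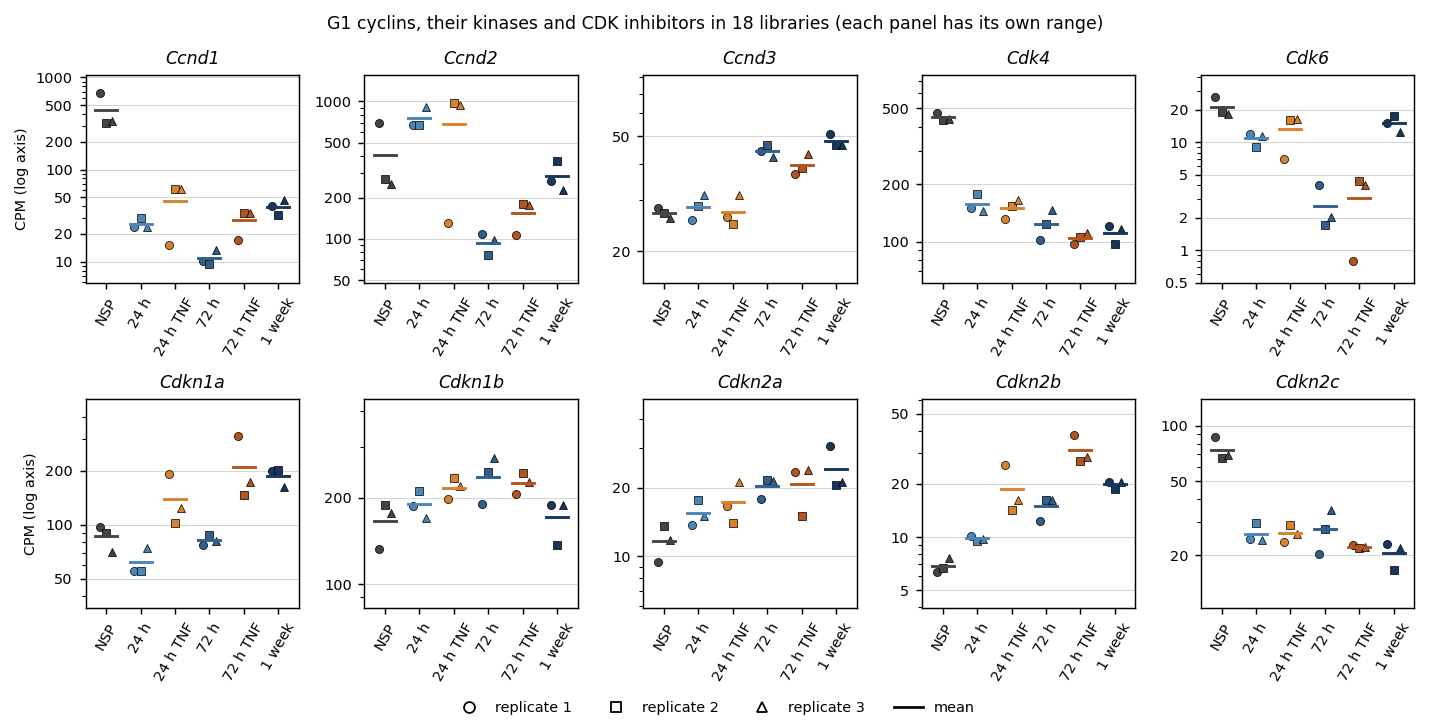
Level in CPM, on a log axis, of each of the 10 genes in the 18 libraries, by condition; the 3 marker shapes are the replicates, each bar is the mean of 3, and every panel has its own range. *Ccnd1*, *Cdk4* and *Cdkn2c* sit highest in NSPs (means 441, 448 and 74.3 CPM), while *Cdkn2b* climbs from a mean of 6.85 CPM in NSPs to 31.1 CPM at 72 h with TNF.

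Set against gene length (CPM per kb of annotated exon), the 3 D cyclins exchanged places. *Ccnd1* made up 67.7% ± 2.72 (SD, n = 3) of D cyclin RNA in NSPs. Its share was 6.31% ± 1.43 after 24 h, 13.4% ± 2.10 after 72 h and 19.4% ± 5.94 after 1 week. *Ccnd2* made up 29.8% ± 3.52 in NSPs and then 90.0% ± 1.74, 57.2% ± 4.42 and 68.1% ± 7.72. The share of *Ccnd3* was 2.51% ± 0.902 in NSPs and 3.69% ± 0.316 at 24 h, and then 29.4% ± 4.39 at 72 h and 12.5% ± 1.91 after 1 week. The *Ccnd1* share was lower in every differentiated library without TNF than in every NSP library. With 3 libraries against 3, an exact two-sided permutation test can give no p under 0.10. For the *Ccnd1* share it gave 0.10 in each comparison with NSPs (0.14 adjusted over the 14 share comparisons made). The share of *Ccnd3* depends on the length used. *Ccnd3* has 21 annotated transcripts and 8775 bases of exon in all, against 2113 in its longest coding transcript. With the longest coding transcript as the length, *Ccnd3* held 54.3% ± 5.12 at 72 h and *Ccnd2* 38.1% ± 4.66, so the order of these genes turned at that time, while *Ccnd1* still held 60.9% ± 1.92 in NSPs. In CPM not set against length, *Ccnd1* and *Ccnd2* were close in NSPs, at 51.4% ± 3.16 and 45.05% ± 4.35 of summed D cyclin CPM (SD, n = 3), and *Ccnd2* was ahead in NSP replicate 1 (49.8% against 48.2%).

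**Figure D2:**
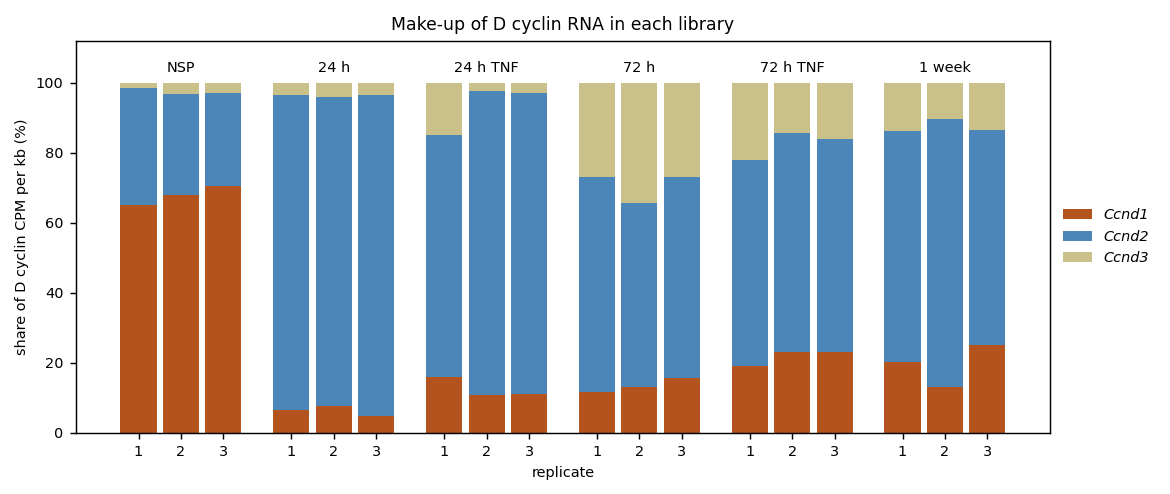
Share of each D cyclin in the summed CPM per kb of the 3 genes, in percent, for each of the 18 libraries grouped by condition (1 bar per replicate). *Ccnd1* fills 65.0% to 70.4% of the NSP bars and 4.86% to 7.72% of the 24 h bars, and *Ccnd3* is largest at 72 h, at 26.9% to 34.5%.

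*Cdk4* at chr10:127063534-127067920 had more RNA per kb of exon than *Cdk6*. It held 96.9% or more of the summed *Cdk4* and *Cdk6* RNA on average in every condition. This share depends on the length used. In CPM not set against length, the means at 1 week were 111.5 for *Cdk4* and 14.95 for *Cdk6*. Proteins and their complexes were not measured. The *Cdk4* level was 470.5, 434 and 440 CPM in NSPs and 149.8, 178 and 144 CPM at 24 h. It was 102.5, 124.0 and 147 CPM at 72 h and 120.3, 97.7 and 117 CPM at 1 week. The drop was present at 24 h and the 3 differentiated groups lay close together. *Cdk4* was 2.85-fold lower than in NSPs at 24 h (adjusted p = 8.36e-08), 3.60-fold lower at 72 h (adjusted p = 3.08e-09) and 4.02-fold lower at 1 week (adjusted p = 9.5e-10), with standard errors of 0.14 on the log2 scale. Between 24 h and 72 h (log2 fold change -0.34, adjusted p = 0.0818) and between 72 h and 1 week (-0.16, adjusted p = 0.598) no change passed the threshold.

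*Cdk6*, the kinase gene at chr5:3341485-3531008, dropped and came back. It was at 26.5, 19.1 and 18.3 CPM in NSPs, 12.0, 9.001 and 11.5 CPM at 24 h, 4.01, 1.72 and 2.04 CPM at 72 h, and 15.02, 17.4 and 12.5 CPM at 1 week. No 2 of these 4 groups overlapped. *Cdk6* at 72 h was 8.35-fold lower than in NSPs (adjusted p = 1.05e-05) and 4.25-fold lower than at 24 h (adjusted p = 0.0017). From 72 h to 1 week it rose by 2.56 on the log2 scale (SE 0.44, adjusted p = 0.00127), 5.88-fold, and the week-old cells were not separated from NSPs by the test (-0.51, 95% interval -1.31 to 0.30, adjusted p = 0.266). The first step, from NSPs to 24 h (1.97-fold lower, adjusted p = 0.043), was lost in each of the 6 fits without 1 library (adjusted p 0.052 to 0.136).

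*Cdkn1a*, the p21 gene at chr17:29090976-29100727, is a direct target of p53. Its level was 97.7, 90.0 and 71.1 CPM in NSPs, 55.5, 55.2 and 74.6 CPM at 24 h and 77.2, 88.1 and 81.5 CPM at 72 h. At 1 week it was 199.4, 201 and 162 CPM, above every earlier library without TNF. It differed from NSPs at neither 24 h (-0.48, SE 0.25, adjusted p = 0.107) nor 72 h (-0.07, adjusted p = 0.832) by the test, and rose 2.28-fold from 72 h to 1 week (log2 1.19, SE 0.25, adjusted p = 0.00564). Against NSPs the week-old cells were 2.17-fold higher (adjusted p = 0.000732).

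*Cdkn1b*, the p27 gene at chr6:134920401-134925513, moved least. It ranged from 132 to 188 CPM in NSPs, 171 to 211 CPM at 24 h, 191 to 275 CPM at 72 h and 137 to 189 CPM at 1 week. Only 72 h differed from NSPs by the test (log2 0.51, SE 0.16, adjusted p = 0.0116). That call was lost without NSP replicate 1 (0.37, adjusted p = 0.0684) and without 72 h replicate 3 (0.39, adjusted p = 0.0682), of a range of adjusted p from 0.00355 to 0.0684.

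Among the INK4 genes, 2 rose and 1 fell. *Cdkn2a* at chr4:89274471-89294653 encodes p16 and, in another reading frame, ARF, and its counts sum both transcripts. It ranged from 9.46 to 13.6 CPM in NSPs, 13.7 to 17.7 CPM at 24 h, 17.8 to 21.7 CPM at 72 h and 20.5 to 30.7 CPM at 1 week. It rose 1.74-fold over NSPs by 72 h (adjusted p = 0.00373) and 2.07-fold by 1 week (adjusted p = 0.000356), and at 24 h the 1.33-fold difference was not called (adjusted p = 0.116). *Cdkn2b*, the p15 gene next to it at chr4:89306299-89311039, was at 6.35, 6.64 and 7.57 CPM in NSPs and 10.2, 9.56 and 9.78 CPM at 24 h. It was at 12.3, 16.2 and 16.3 CPM at 72 h and at 20.5, 18.7 and 20.6 CPM at 1 week, and these 4 groups did not overlap in any pair. The rise over NSPs was 1.44-fold at 24 h (adjusted p = 0.0383), 2.18-fold at 72 h (adjusted p = 0.000109) and 2.90-fold at 1 week (adjusted p = 2.85e-06). The early steps were weak: the call at 24 h was lost in 5 of 6 fits without 1 library (adjusted p 0.0452 to 0.0979), and that from 24 h to 72 h (1.52-fold, adjusted p = 0.0312) also in 5 of 6 (0.0174 to 0.11).

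*Cdkn2c*, the p18 gene at chr4:109660876-109667189, went the other way. It was at 86.9, 66.9 and 69.1 CPM in NSPs, 24.5, 29.7 and 24.1 CPM at 24 h, 20.2, 27.6 and 35.0 CPM at 72 h and 22.9, 16.6 and 21.8 CPM at 1 week. All differentiated libraries lay under all NSP libraries. The 72 h group overlapped with both other groups, while every 1 week library lay under every 24 h library, a difference that was not tested. The level was 2.84-fold lower at 24 h (adjusted p = 1.62e-06), 2.69-fold lower at 72 h (adjusted p = 1.83e-06) and 3.64-fold lower at 1 week (adjusted p = 6.25e-08). *Cdkn2c* followed *Cdk4* across the 18 libraries more closely than any other pair of the set (Pearson r = 0.97 of log2 CPM, given as a description, since the libraries share conditions).

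Counted over the set, 5 genes were called at 24 h against NSPs (1 higher and 4 lower), where 52.7% of all genes tested were called (27.2% higher and 25.5% lower). At 72 h 9 were called (4 higher and 5 lower) where 55.3% of all genes were (28.1% and 27.2%), and at 1 week 7 (4 higher and 3 lower) where 58.6% were (29.6% and 29.1%). The counts at 24 h and 1 week are near the background. The 3 comparisons share the NSP libraries. From 24 h to 72 h 5 genes were called (2 higher and 3 lower; 24.8% of all genes, 12.2% higher and 12.6% lower), and from 72 h to 1 week 3 were called, all higher (6.63% of all genes, 2.68% higher and 3.96% lower): *Ccnd1*, *Cdk6* and *Cdkn1a*. That last background count moved with single libraries: 1331 genes were called with all of them, 610 and 831 without 72 h replicates 2 and 3, 730, 793 and 744 without 1 week replicates 1, 2 and 3, and 3224 without the 3 libraries that stood apart. The groups did not overlap for 6, 9 and 8 of the 10 genes at 24 h, 72 h and 1 week against NSPs, where 61.5%, 59.8% and 64.6% of all genes did not, for 7 from 24 h to 72 h (41.3%) and for 7 from 72 h to 1 week (26.9%). The median log2 fold change of the 10 genes against NSPs was -0.21, -0.75 and -0.23 at the 3 times, beside 0.06, 0.05 and 0.06 over all genes tested. In these bulk samples, fewer cells that express a gene and less of its RNA per cell cannot be told apart.

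**Figure D3:**
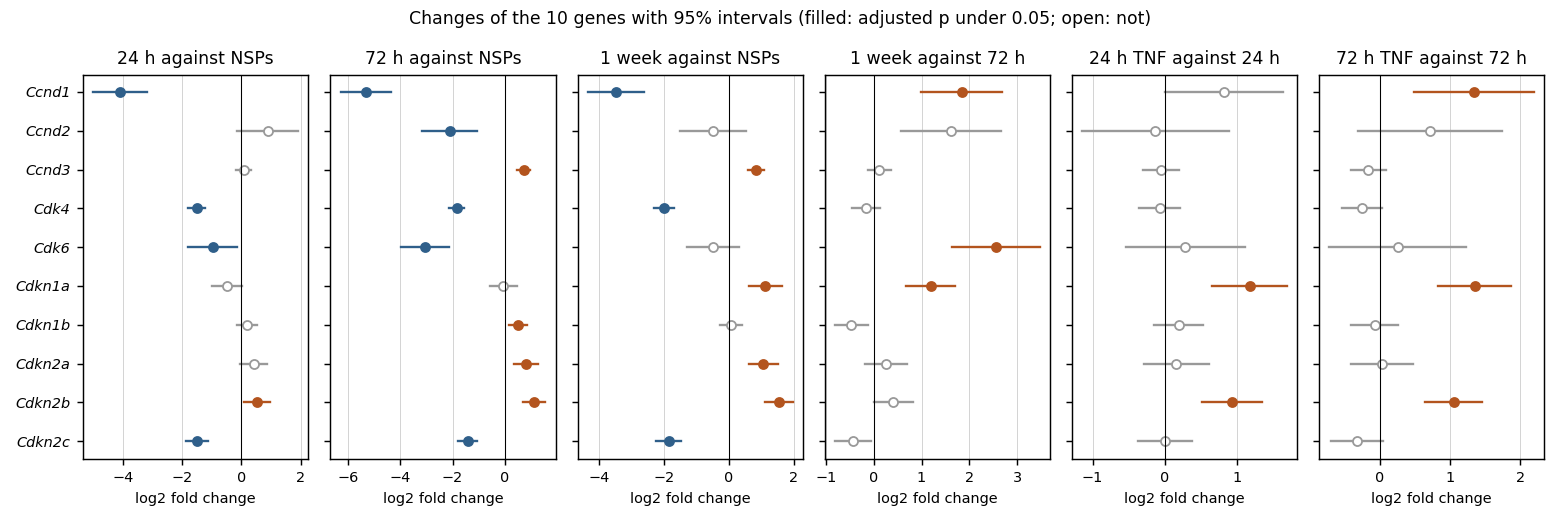
Log2 fold change of the 10 genes in 6 comparisons, with 95% intervals from the edgeR fit, each panel on its own axis; filled points had an adjusted p under 0.05, open gray points did not. *Ccnd1*, *Cdk4* and *Cdkn2c* are lower than in NSPs at every time, and with TNF *Cdkn1a* and *Cdkn2b* are higher at both times.

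TNF, an inflammatory cytokine that signals mainly through NF-kB, was added to see how inflammation alters the course of differentiation. With TNF, *Cdkn1a* and *Cdkn2b* were higher at both 24 h and 72 h, and *Ccnd1* was higher at 72 h. No gene of the set was lower with TNF at either time. *Cdkn1a* was at 192, 102.9 and 123 CPM at 24 h with TNF, against 55.2 to 74.6 CPM without. At 72 h it was at 312, 146 and 173 CPM with TNF and 77.2 to 88.1 CPM without. Neither pair of groups overlapped, and replicate 1 was the highest TNF library at both times. *Cdkn1a* was 2.26-fold higher with TNF at 24 h (log2 1.17, SE 0.25, adjusted p = 0.00978) and 2.55-fold higher at 72 h (log2 1.35, SE 0.25, adjusted p = 0.00133).

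*Cdkn2b* was at 25.6, 14.3 and 16.2 CPM at 24 h with TNF, against 9.56 to 10.2 CPM without, and at 37.8, 26.99 and 28.5 CPM at 72 h with TNF, against 12.3 to 16.3 CPM without. The groups did not overlap, and replicate 1 with TNF was again the highest. The difference was 1.90-fold at 24 h (log2 0.93, SE 0.20, adjusted p = 0.0102) and 2.08-fold at 72 h (log2 1.05, SE 0.19, adjusted p = 0.00131). Both 72 h calls held in all 6 fits without 1 library, with *Cdkn1a* at 0.96 or more and *Cdkn2b* at 0.89 or more on the log2 scale. The 24 h calls were each lost in 3 of 6 such fits. *Cdkn1a* was not called without 24 h replicate 1 (adjusted p = 0.0652), 24 h replicate 2 (0.066) or 24 h TNF replicate 1 (log2 0.86, adjusted p = 0.0686), of a range from 0.0063 to 0.0686. *Cdkn2b* was not called without 24 h replicate 2 (adjusted p = 0.0596), 24 h replicate 3 (0.0518) or 24 h TNF replicate 1 (log2 0.62, adjusted p = 0.0722), of a range from 0.0053 to 0.0722. With all 3 of the libraries that stood apart left out together, both genes were called at 24 h. With only the conditions compared in the fit, *Cdkn2b* at 24 h was not called (log2 0.94, adjusted p = 0.0515).

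*Ccnd1* with TNF split by library. At 24 h it was at 14.99, 61.3 and 61.3 CPM with TNF and 23.9 to 29.6 CPM without, so that replicate 1 lay below and replicates 2 and 3 above all untreated libraries. The difference was not called (log2 0.83, SE 0.39, adjusted p = 0.358), and without 24 h TNF replicate 1 it was 1.23 and was called (adjusted p = 0.0276). At 72 h *Ccnd1* was at 17.2, 33.4 and 33.5 CPM with TNF against 9.33 to 13.4 CPM without, 2.54-fold higher (log2 1.34, SE 0.41, adjusted p = 0.0429). This call was lost with the replicate block (1.33, adjusted p = 0.0556) and in 5 of the 6 fits without 1 library, from an adjusted p of 0.0741 without 72 h replicate 1 to 0.168 without 72 h replicate 2. It held without 72 h TNF replicate 1 (1.604, adjusted p = 0.0212). The *Ccnd1* share of D cyclin RNA per kb was 12.6% ± 2.79 at 24 h with TNF against 6.31% without, and 21.7% ± 2.34 at 72 h with TNF against 13.4% without. Neither pair of groups overlapped (exact permutation p = 0.10 in both, the smallest possible, 0.14 adjusted). *Ccnd2* repeated the split at 24 h, at 132, 980 and 949 CPM with TNF (log2 -0.13 against 24 h, adjusted p = 0.948). It was at 106, 181 and 176 CPM at 72 h with TNF (log2 0.71 against 72 h, adjusted p = 0.385). *Cdk6* was at 6.93, 16.03 and 16.6 CPM at 24 h and 0.789, 4.35 and 4.004 CPM at 72 h with TNF, replicate 1 again the lowest (adjusted p = 0.836 and 0.773).

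The TNF libraries labelled replicate 1 differed from replicates 2 and 3 in markers too. *Gfap* was at 1871, 463 and 596.5 CPM at 24 h with TNF and at 1022, 217 and 229 CPM at 72 h with TNF. *Acta2* was at 90.3, 527 and 492.5 CPM and at 49.2, 186 and 202 CPM, against 400.9 to 494 and 195 to 292 CPM without TNF. The summed level of the 5 neural stem cell markers ranged from 1438 to 3207 CPM at 24 h with TNF and from 843 to 1425 CPM at 72 h with TNF, against 2059 to 2498 and 1285 to 1874 CPM without, and that of the 7 astrocyte markers from 4408 to 5947 and from 3485 to 4873 CPM, against 5020 to 5221 and 5705 to 7783 CPM. Deviations from the condition mean correlated between the 2 TNF groups for every replicate number (r = 0.29, 0.26 and 0.27 across genes, which are not independent replicates), so the TNF comparisons at 24 h and 72 h are not independent in this respect. The part of these markers in the levels of *Ccnd1*, *Ccnd2*, *Cdkn1a* and *Cdkn2b* was not tested.

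No other gene of the set was called with TNF. *Cdkn1b* was at 198 to 234 CPM at 24 h with TNF and 206 to 244 CPM at 72 h with TNF (log2 0.19 and -0.07). *Cdkn2a* ranged from 14.0 to 21.2 and from 14.97 to 23.8 CPM (0.16 and 0.03), and *Cdkn2c* from 23.6 to 28.9 and from 21.7 to 22.7 CPM (0.00 and -0.32). *Cdk4* ranged from 131 to 165 and from 96.9 to 111 CPM (-0.07 and -0.25), and *Ccnd3* from 24.8 to 31.4 and from 37.1 to 43.4 CPM (-0.05 and -0.16). None of these passed the test, and their 95% intervals at 72 h ran from -0.69 for *Cdkn2c* to 0.47 for *Cdkn2a*, which leaves room for changes under 2-fold in either direction. In all, 2 of the 10 genes were called with TNF at 24 h (both higher; 3.5% of all genes tested were called, 2.18% higher and 1.32% lower) and 3 at 72 h (all higher; 9.56% of all genes, 4.35% higher and 5.21% lower). These background counts moved with single libraries: 703 genes were called at 24 h and 360 to 367 without any one 24 h library, and 1919 at 72 h but 2922, 965 and 1049 without 72 h replicates 1, 2 and 3. Without the 3 libraries that stood apart, the counts were 1277 at 24 h and 2739 at 72 h. The same 2 and 3 genes were those whose groups did not overlap (20.8% and 26.2% of all genes). In the test of whether the TNF effect differed between 24 h and 72 h, edgeR called 0 of the 10 genes (0.458% of all genes tested, 0.135% higher and 0.324% lower), 0 at an unadjusted p under 0.05, and DESeq2 also called 0. Over all genes that test called 92 with all libraries and 246 with DESeq2. It called 27, 31 and 28 without 24 h replicates 1, 2 and 3, 25 without either of 72 h replicates 2 and 3, and 58 and 50 without replicates 2 and 3 of 72 h with TNF. The count rose to 126 without 72 h replicate 1, 133 without 72 h TNF replicate 1 and 348 without the 3 libraries that stood apart. The largest difference between times was that of *Ccnd2* (0.85 on the log2 scale, 95% interval -0.60 to 2.29).

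The part of *Cdkn1a* in inhibitor RNA per kb of exon was larger with TNF at both times and at 1 week. Of the summed level of the 5 inhibitors it held 23.5% ± 3.56 in NSPs and 19.6% ± 3.99 at 24 h, and then 20.6% ± 2.35 at 72 h and 39.8% ± 5.24 after 1 week. It held 30.9% ± 6.999 at 24 h with TNF and 36.6% ± 8.64 at 72 h with TNF. These TNF groups and the 1 week group lay wholly above the untreated group of comparison (exact permutation p = 0.10 each, the smallest possible, 0.14 adjusted). *Cdkn1b* held the largest mean share in NSPs (35.2% ± 5.77), at 24 h (46.8% ± 3.36), at 24 h with TNF (38.6% ± 7.07) and at 72 h (45.7% ± 1.95), and *Cdkn1a* at 72 h with TNF and at 1 week, when *Cdkn1b* held 28.3% ± 4.04. At 72 h with TNF, *Cdkn1a* was ahead in replicate 1 only, which stood apart, and *Cdkn1b* was ahead in replicates 2 and 3. With the longest coding transcript as the length, *Cdkn1a* was first in NSPs and at 24 h with TNF too (32.9% and 41.7%, against 29.0% and 30.8% for *Cdkn1b*), and in CPM not divided by length *Cdkn1b* was first at 72 h with TNF (45.3% against 40.2%), so the order of these genes there depends on the length used. The share of *Cdkn2c* was 26.9% ± 4.53 in NSPs and 5.71% ± 0.693 at 1 week.

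The neighbours of these genes in the pathway, from lists written with earlier results of these data known, were compared in the same way. Against NSPs most genes of the S-phase side were lower. Of 8 other G1/S cyclins, kinases and activators, 6 were lower and 0 higher at each of 24 h, 72 h and 1 week, where 25.5%, 27.2% and 29.1% of all genes tested were lower, among them *Ccna2*, the S-phase cyclin, at a mean of 195 CPM in NSPs and 9.55, 3.50 and 4.58 CPM at the 3 times. *Ccne1*, the cyclin partner of CDK2, was 6.18-fold, 19.9-fold and 10.0-fold lower. *Cdk2* was 2.31-fold, 2.42-fold and 3.11-fold lower. Of 10 E2F factors and partners, 9, 7 and 9 were lower and 0 higher, with *E2f1* at a mean of 8.72 CPM in NSPs and 2.05, 1.26 and 2.34 CPM later. All 5 proliferation markers were lower at each time, and *Mki67* went from 457 to 493 CPM in NSPs to 37.6 to 42.9, 1.35 to 1.44 and 2.32 to 3.01 CPM. With TNF, 0 of the 8 G1/S genes, 0 of the 10 E2F genes and 0 of the 5 proliferation markers were called by edgeR at either time (at 24 h, 1, 1 and 0 had an unadjusted p under 0.05, and at 72 h 0, 2 and 1). With 3.5% and 9.56% of all genes called, 0 in lists of this size is near the background. From 72 h to 1 week none of these genes was called by edgeR (unadjusted p under 0.05 for 1, 1 and 0 of the 3 lists). With 6.63% of all genes called there, 0 in lists of this size is near the background too.

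The pocket proteins bind and hold E2F factors, and they moved in opposite directions. *Rb1*, the retinoblastoma gene, was at a mean of 101.4 CPM in NSPs and 175, 187 and 152.5 CPM at 24 h, 72 h and 1 week, higher at each (1.72-fold, 1.85-fold and 1.504-fold, adjusted p = 0.000135, 2.85e-05 and 0.0013). *Rbl2* was higher at 72 h and 1 week (1.69-fold and 1.65-fold), and *Rbl1* was 4.82-fold, 7.89-fold and 7.66-fold lower. None of the 3 was called with TNF (unadjusted p under 0.05 for 0 at 24 h and 1 at 72 h). With 3.5% and 9.56% of all genes called at these times, 0 of 3 is near the background. The 2 other inhibitors, *Cdkn1c* (p57) and *Cdkn2d* (p19), were both lower than in NSPs at each time, as *Cdkn2c* was. Of all genes tested, 25.5%, 27.2% and 29.1% were lower at the 3 times. *Cdkn1c* was at 3.998, 11.3 and 12.9 CPM in NSPs, 1.67, 1.53 and 1.38 CPM at 72 h and 0.676, 0.522 and 0.438 CPM at 72 h with TNF, 2.75-fold lower with TNF (adjusted p = 0.036). These 72 h levels are low, and this call was not examined in fits without 1 library. Of 7 genes for the turnover of D cyclins and p27, 4, 2 and 2 were lower and 0, 1 and 1 higher at the 3 times, beside 25.5%, 27.2% and 29.1% of all genes lower. The higher gene was *Fbxo4* (1.33-fold at 72 h and 1.46-fold at 1 week). *Skp2*, which marks p27 for destruction, went from 50.6 to 107 CPM in NSPs to 22.1 to 24.2 CPM at 24 h.

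Genes of the p53 list were higher with TNF at both times. Of *Trp53* and 11 targets of p53 other than *Cdkn1a*, 7 were higher and 0 lower with TNF at 24 h, where 2.18% of all genes were higher, and 7 were higher and 0 lower at 72 h, where 4.35% were, with medians of 0.82 and 0.76 on the log2 scale beside -0.01 over all genes tested at either time. The TNF library of replicate 1, which stood apart, was the highest of the 3 TNF libraries for 9 of the 12 genes at 24 h and 7 at 72 h. Without it, 5 genes were higher at 24 h (median 0.672) and 6 at 72 h (median 0.668), and 0 were lower. Without 24 h replicate 3, 4 were higher at 24 h, and over all fits without 1 library the counts were 4 to 5 at 24 h and 5 to 8 at 72 h. *Trp53* itself was at 20.4, 17.2 and 23.5 CPM at 24 h and 48.9, 31.8 and 39.7 CPM with TNF (1.98-fold, adjusted p = 0.0057). At 72 h it was at 18.8, 20.1 and 18.3 CPM and 62.7, 40.6 and 45.6 CPM with TNF (2.60-fold, adjusted p = 0.000108). *Mdm2*, which marks p53 for destruction, was at 92.8, 90.3 and 89.3 CPM at 24 h and 207, 151 and 149 CPM with TNF (1.86-fold, adjusted p = 0.000562), and 2.14-fold higher at 72 h (adjusted p = 2.94e-05). *Ccng1* was 2.26-fold and 1.76-fold higher, *Phlda3* 2.54-fold and 2.45-fold, *Aen* 1.67-fold and 1.56-fold, and *Btg2* 1.55-fold and 1.80-fold. *Gadd45a* was called at 24 h only (1.97-fold) and *Mdm4* at 72 h only (1.63-fold). The interaction of TNF and time was called by edgeR for 0 of the 12 genes, 0 at an unadjusted p under 0.05. With 0.458% of all genes called in that test, 0 of 12 is near the background and does not show equal effects at both times. From 72 h to 1 week without TNF, 7 of the 12 were higher and 0 lower (2.68% of all genes were higher), among them *Mdm2* (2.03-fold), *Btg2* (2.08-fold) and *Sesn2* (1.63-fold), while *Trp53* was not called (log2 0.21, adjusted p = 0.62). Both the 72 h TNF and the 1 week comparison use the 72 h libraries. Against NSPs the list was split: 6, 5 and 2 of the 12 were lower and 0, 1 and 7 higher at the 3 times, beside 25.5%, 27.2% and 29.1% of all genes lower and 27.2%, 28.1% and 29.6% higher.

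**Figure D4:**
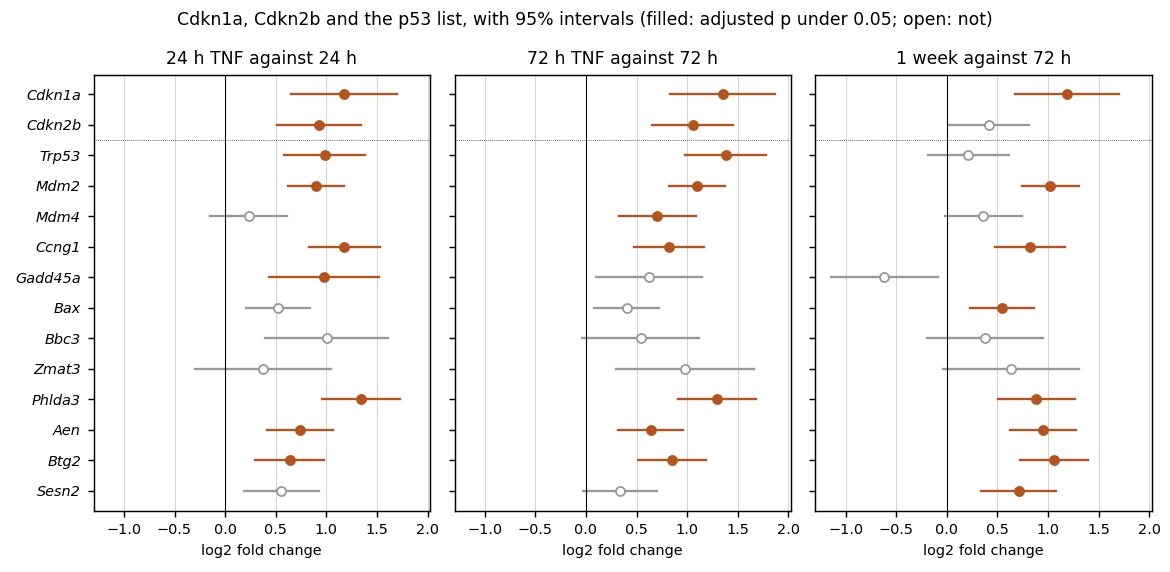
Log2 fold change of *Cdkn1a*, *Cdkn2b* (above the dotted line) and the 12 genes of the p53 list for TNF at 24 h, TNF at 72 h and 1 week against 72 h, with 95% intervals from the edgeR fit; filled points had an adjusted p under 0.05, open gray points did not. All 14 points lie above 0 in both TNF panels, and *Gadd45a* alone lies below 0 (-0.62) in the third.

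The genes whose log2 CPM followed each member most closely over the 18 libraries were found among 12962 genes, as a description. For *Cdk4* they were the histone gene *Hist1h2bb* and *Cks2* (Pearson r = 0.99 for both), and for *Cdkn2c* *Snrpc* and *Itpa* (r = 0.99 and 0.98). For *Ccnd1* they were *Slc1a4* and *Slc25a25* (0.96 for both), for *Ccnd2* *Fam126a* and *Tubb6* (0.93 for both), for *Ccnd3* *Prx* and *Dnaaf5* (0.97 for both) and for *Cdk6* *Igfbp2* and *Prkdc* (0.91 for both). For *Cdkn1a* they were *Zbtb46* and *Piezo1* (0.96 and 0.95), for *Cdkn2b* *Lpin3* and *Arrb1* (0.98 and 0.97), for *Cdkn2a* *Klhl26* and *Zbtb7b* (0.95 and 0.94), and for *Cdkn1b* *Clk1* and *Pnpla8* (0.89 and 0.87). *Cdkn1b* thus had the weakest best match of the set. The 18 points share 6 conditions, so these values mostly describe the differences between conditions.

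Some of these counts could hold reads of a neighbour. Exons of the opposite-strand gene *LTO1* overlap 23.4% of the exon bases of *Ccnd1*, those of *Tspan31* 19.7% of *Cdk4*, and those of *AC167363.2* 7.68% of *Cdkn1a*. For *Ccnd2*, *Ccnd3* and *Cdk6* such overlaps were 2.63% to 4.11% for any single neighbour, and the other 4 genes had none. The libraries kept strand, but the strand setting of the counting is not given in the sources used here, and the part of these overlaps in the values was not tested.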

How the data were processed

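RNA was sequenced from 18 mouse cultures in 6 conditions of 3 replicates, grouped by their labels. The authors used Trim Galore for trimming, STAR for alignment to mm10, SAMtools for sorting and featureCounts for counting, and deposited the raw counts per gene without normalization. Versions and the strand setting are not given in the sources used here. RNA quality is given as a range that reaches down to low values, not per library. Its part in the values of single libraries was not tested. The table holds 54838 genes, of which 54809 matched GENCODE M21, the source of names, positions and exon lengths. Replicate 3 of 72 h has the number 4 in its column name and was assigned by its condition and library suffix.

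TMM factors and quasi-likelihood tests were computed with edgeR 4.0.16 (limma 3.58.1, R 4.3.3) with 1 mean for each condition and all 18 libraries in the fit, for the 20067 genes passing filterByExpr, with Benjamini-Hochberg adjustment over all of them and 0.05 as the threshold (biological coefficient of variation 0.18). Standard errors were taken as the log2 fold change divided by the square root of F. The log2 CPM used a prior count of 2. Shares within a family used CPM per kb of the union of exons and exact permutation tests. Figures and tables used Python 3.11.15 with pandas 2.3.3, scipy 1.17.1 and matplotlib 3.10.9. On simulated counts the edgeR step was tested and recovered changed genes. Reads carried no molecular identifiers, so depth covers counting error only.

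The 10 genes, the lists and the tests were chosen with earlier results of these data known. Named genes are the 10 members, members of the lists and, for each member, the 2 genes with the highest Pearson correlation. Replicate numbers were checked as a pairing: deviations of same-numbered libraries correlated above 0.1 for all 3 numbers in 1 of 15 pairs of conditions, 24 h with TNF and 72 h with TNF, and in none of the pairs tested against each other, so the block is an alternative only. Alternatives were DESeq2 1.42.0 with its size factors, RLE scaling, at least 5 counts in total, fitting only the conditions compared, at least 10 counts in every library, replicate blocks and leaving out each library. Leaving out the 3 libraries that stood apart together, and the longest coding transcript as length, were added after the data were seen.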

Additional observations from a re-analysis of the deposited data

How the results depend on the processing

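Over fits without 1 library, 469 of 540 member values kept their direction and their side of the threshold, 36 lost a call, 5 gained one and 30 changed sign; over the other settings the numbers were 597, 10, 17 and 16 of 640. No called value changed sign. Without 1 library the number of members called ranged from 3 to 4 at 24 h against NSPs (5 with all libraries), 3 to 4 from 24 h to 72 h (5), 2 to 5 from 72 h to 1 week (3) and 0 to 2 for TNF at 24 h (2). Fitting only the conditions compared left 1 call for TNF at 24 h (*Cdkn1a*). With the 3 libraries that stood apart left out together, an alternative added after the data were seen, 6 members were called from 72 h to 1 week (*Ccnd2* and *Cdkn2b* higher and *Cdkn1b* lower in addition), 7 at 24 h against NSPs (5 with all libraries), 7 from 24 h to 72 h (*Cdk4* and *Cdkn1a* in addition), 3 for TNF at 24 h (*Ccnd1* in addition) and 4 for TNF at 72 h (*Ccnd2* in addition). The calls that changed with the filter or the samples fitted were, besides, *Cdk6* (lost, adjusted p = 0.0767) and *Cdkn2a* (gained, 0.0489) at 24 h against NSPs and *Cdk4* from 24 h to 72 h (gained, 0.033) with at least 10 counts in every library, *Ccnd2* (0.0499) and *Cdkn1a* (0.0455) at 24 h against NSPs and *Cdkn1a* from 24 h to 72 h (0.037), all gained, with only the conditions compared, and *Ccnd2* from 72 h to 1 week (gained) with that fit (0.00127) and at 5 counts in total (0.0446). The cause was not tested.

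Same-numbered libraries deviated together (r over 0.1 for all 3 numbers) in none of the 7 pairs of conditions compared, where r ranged from -0.416 to 0.303 and was positive throughout only for 72 h and NSPs (0.219, 0.15 and 0.053). They did so for the 2 TNF conditions (0.291, 0.255 and 0.266), which meet in the interaction alone, where the replicate block left 0 members called. With the replicate as a block, *Ccnd1* with TNF at 72 h was 1.33 (adjusted p = 0.0556) and *Cdk6* at 24 h against NSPs -0.98 (0.0543), both no longer called, and with 72 h replicate 3 unpaired *Ccnd1* was 1.43 (0.139) and *Cdk6* -0.99 (0.0599), the calls of *Cdkn1b* at 72 h, of *Ccnd1* and *Cdkn2b* from 24 h to 72 h and of *Ccnd1* from 72 h to 1 week were lost too, and *Cdk4* from 24 h to 72 h was called.

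The values that changed sign were all uncalled. Under other settings these were *Cdkn1a* at 72 h against NSPs (0.037 with at least 10 counts in every library, 0.026 without the 3 libraries), *Cdk6* in the interaction (0.024 and 0.156 under the same settings), *Cdkn2c* from 24 h to 72 h (-0.14, block with 72 h replicate 3 unpaired), *Cdkn1b* with TNF at 72 h (0.043, the same block), *Cdkn2c* with TNF at 24 h (-0.003 with DESeq2 and with RLE, -0.018 at 5 counts in total, -0.012 at 10 in every library, -0.001 with the block) and, without the 3 libraries, *Ccnd2* at 1 week against NSPs (0.13), *Cdkn1b* there (-0.10), *Ccnd2* with TNF at 24 h (0.34), *Cdkn1b* (0.001) and *Cdkn2a* (-0.058) with TNF at 72 h. Without 1 library, the ranges that crossed 0 were, against NSPs, *Ccnd3* at 24 h (-0.003 to 0.14), *Cdkn1a* at 72 h (-0.192 to 0.027), *Ccnd2* at 1 week (-0.75 to 0.12) and *Cdkn1b* at 1 week (-0.10 to 0.19); from 24 h to 72 h, *Cdkn2c* (-0.13 to 0.26); with TNF at 24 h, *Ccnd2* (-0.49 to 0.34), *Ccnd3* (-0.16 to 0.006), *Cdk4* (-0.15 to 0.02), *Cdkn2a* (-0.013 to 0.28) and *Cdkn2c* (-0.085 to 0.097); with TNF at 72 h, *Cdk6* (-0.10 to 0.72), *Cdkn1b* (-0.208 to 0.049) and *Cdkn2a* (-0.083 to 0.216); and in the interaction, *Cdk6* (-0.39 to 0.44), *Cdkn1a* (-0.21 to 0.51), *Cdkn2a* (-0.247 to 0.056) and *Cdkn2b* (-0.029 to 0.448). The *Cdkn1a* share of inhibitor RNA from 24 h to 72 h ranged from -0.605 to 3.24 percentage points. With 3 libraries a condition and counts down to 14 for *Cdk6*, small changes could not be detected.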
